A study of Canis lupus familiaris with 6 samples.

Results

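The kinesin superfamily is the set of motor proteins that hydrolyse ATP to walk along, or take apart, microtubules. Members were taken by gene symbol: every gene whose only platform symbol is KIF followed by a number and at most 1 letter, or KIFC followed by a number, with the brightest probe set standing for the gene. This gave 40 genes of the 15947 named genes on the array. They were divided into 12 mitotic kinesins, 17 transport kinesins and 11 others with ciliary, depolymerising or signalling roles. The mitotic list does not hold every kinesin with a part in mitosis, since KIF2A, used at spindle poles, is among the others. Mean brightness over all 6 arrays chose the probe set, and no difference between groups entered the symbol rule. For KIF26B that choice turned on the AZA array, as described below. The family, its role lists and the partner lists were, however, chosen with earlier results of these data known.

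The arrays came from MDCK cells, a dog kidney epithelial line grown in DMEM with serum. The groups were 1 array labelled 5-AZA for 72 hours post-TGFb (called AZA), 1 array of cells 30 days after TGFb was taken away (withdrawal), 2 arrays of cells treated for 30 days with TGFb at 5 ng/ml, and 2 arrays of untreated cells. The AZA and withdrawal cells had therefore also received TGFb, whereas the untreated cells had not. Whether TGFb stayed on during 5-AZA is not stated. The labels do not spell out 5-AZA; the nucleoside analogues commonly given that abbreviation enter nucleic acid and trap DNA methyltransferases. Nothing in the labels says whether arrays of a group were separate cultures, so p-values measure the spread between these arrays, which may be technical.

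In dividing cells mitotic kinesins build the spindle, align and separate chromosomes and form the cleavage site, and their transcripts are made mainly in the G2 and M phases of the cell cycle. Transport kinesins carry vesicles, organelles and protein complexes, most of them toward the plus ends of microtubules. In polarised kidney epithelium such motors serve apical and basolateral delivery and the primary cilium. Several family members, among them KIF1A, KIF5A and KIF5C, are best known from neurons.

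Signals are the deposited log2 values, in which 1 unit is a doubling. Differences are between group means on that log2 scale, with ± giving the standard error of a limma fit to all 6 arrays, and ± SD on a level is the spread of the 2 arrays of a group. A gene was called when its Benjamini-Hochberg adjusted p over all 32293 probe sets was below 0.05. There was no filter on low values, so all 40 kinesins were tested. Of these, 31 had a mean signal above that of the middle probe set, among them all 12 mitotic, 13 transport and 6 other kinesins. Signals of different genes come from different probes and were not set against each other.

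The epithelial adhesion marker CDH1 was high on the withdrawal and untreated arrays. CDH1, encoding E-cadherin, read 6.98 on the AZA array, 11.34 on the withdrawal array, 6.25 and 7.24 on the TGFb arrays and 11.64 and 11.43 on the untreated arrays. Of 6 epithelial markers, CDH1, EPCAM and KRT19 fell under TGFb against untreated cells, where 0.954% of all probe sets were called lower. CDH1, KRT18 and KRT19 fell on the AZA array against untreated cells, where 1.41% were. The kidney lineage marker PAX8 ran the other way, at 5.46 on the AZA array, 5.22 on the withdrawal array, 6.41 and 6.50 on the TGFb arrays and 5.91 and 5.82 on the untreated arrays, and was not called. Array medians lay between 4.97 and 5.01. Of 16 markers of neurons, leukocytes, endothelium and smooth muscle, 1 rose on the AZA array against both TGFb and untreated cells. Calls of higher signal in these 2 comparisons took in 0.855% and 2.24% of all probe sets. The marker was the endothelial adhesion gene PECAM1, which read 6.57 on the AZA array and 3.24 to 3.62 on the other arrays. With 1 array each, AZA treatment or withdrawal cannot be told apart from anything else peculiar to that array, and the fit gave it the spread of the replicated groups.

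**Figure D1:**
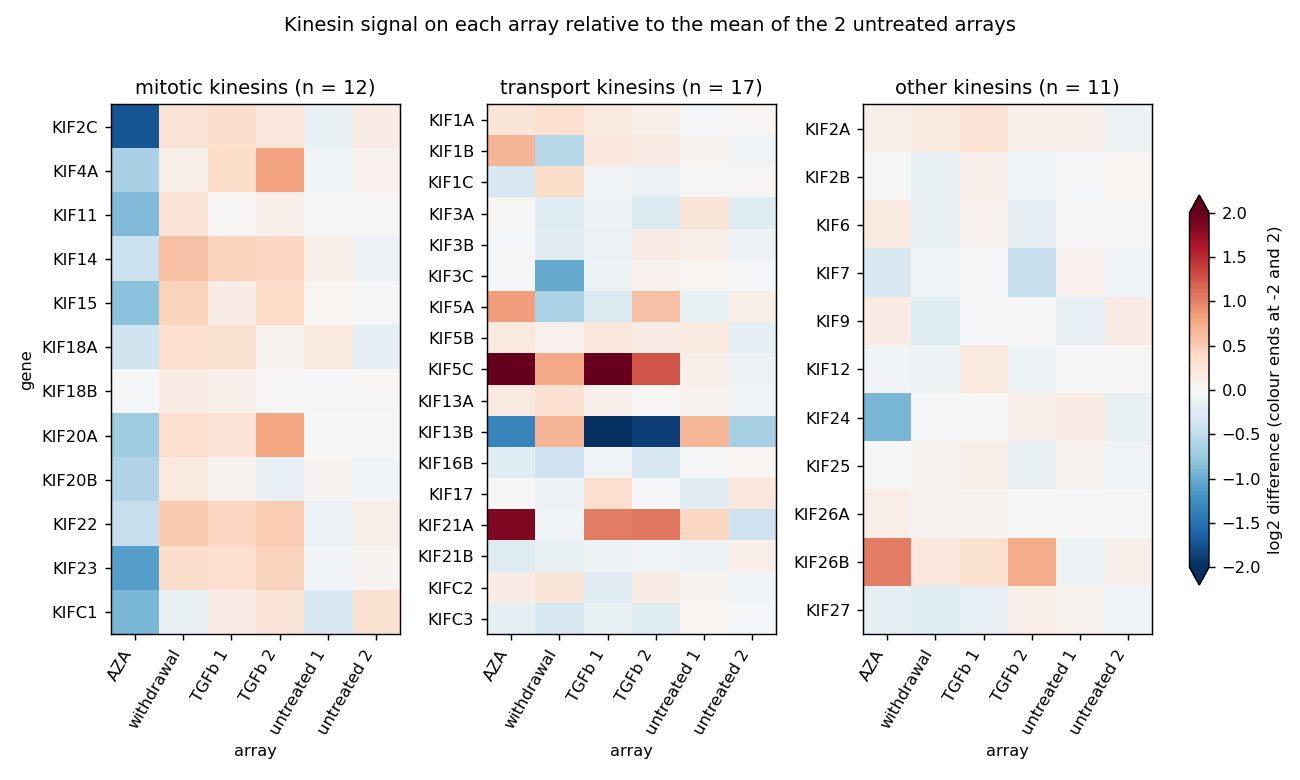
Log2 difference of each of the 40 kinesins (rows) on each of the 6 arrays (columns) from the mean of the 2 untreated arrays, in 3 panels for mitotic (12), transport (17) and other (11) kinesins. Blue is below and red above the untreated mean, and colour ends at -2 and 2. The AZA column is blue for the mitotic genes, apart from KIF18B, which is near 0, while in the transport panel colour is concentrated in KIF5C, KIF13B, KIF21A and a few more rows.

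The AZA array was set against the TGFb arrays to ask what 5-AZA did to kinesin expression in TGFb-treated cells. All 12 mitotic kinesins read lower on the AZA array than on either TGFb array. KIF2C, which takes apart microtubule ends at kinetochores, and KIF23, the motor of the centralspindlin complex at the cleavage site, fell in the test over all probe sets. The median log2 difference of the mitotic list was -1.02, while it was 0.10 for the transport list, -0.01 for the other kinesins and -0.02 for all probe sets. Calls of lower signal took in 2 of the 12 mitotic kinesins, against 0.189% of all probe sets. At an unadjusted p under 0.05 it was 10 of 12, against 7.41%, and 6 of 12 lay lower by 1 or more, against 2.86%. Lying below both TGFb arrays was itself common, at 39.2% of all probe sets. These are descriptions of a chosen list and carry no test of the list as a whole.

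KIF2C read 4.33 on the AZA array, 6.32 on the withdrawal array, 6.42 and 6.28 on the TGFb arrays and 5.91 and 6.21 on the untreated arrays. The AZA value stood apart from a narrow band formed by the other 5 arrays and lay below the 4.99 of the middle probe set. It was 4.06-fold lower than the TGFb mean, a log2 difference of -2.02 ± 0.21 (limma adjusted p = 0.0325). Against untreated cells it was 3.32-fold lower, with a log2 difference of -1.73 ± 0.21 (limma adjusted p = 0.0244).

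KIF23 read 8.66 on the AZA array, 10.12 on the withdrawal array, 10.09 and 10.21 on the TGFb arrays and 9.71 and 9.81 on the untreated arrays. Here as well the AZA array lay outside the range of all others, by 1.06. The fall was 2.82-fold against the TGFb arrays, -1.49 ± 0.18 on the log2 scale (limma adjusted p = 0.0428), and 2.15-fold against untreated cells, -1.11 ± 0.18 (limma adjusted p = 0.0478).

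Both genes missed the threshold when any 1 of the 4 replicated arrays was left out. Such a fit has 1 residual degree of freedom and 1 array in that group. Calls over all probe sets fell in each of these fits, so the loss is not particular to these genes. For AZA against TGFb, the KIF2C difference stayed between -2.09 and -1.95 and the KIF23 difference between -1.55 and -1.43. For AZA against untreated, the ranges were -1.88 to -1.58 for KIF2C and -1.16 to -1.06 for KIF23. KIF23 also lay just past the threshold after quantile normalization (adjusted p = 0.0513 against TGFb and 0.0516 against untreated).

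The remaining motors that work on chromosomes and spindle poles did not pass. KIF11, the bipolar motor that pushes spindle poles apart, read 8.84 on the AZA array, 9.75 and 9.83 on the TGFb arrays and 9.70 and 9.74 on the untreated arrays. Its AZA value was 0.86 below the lowest of the other 5 arrays, and the difference from TGFb was -0.95 ± 0.18 (limma adjusted p = 0.102). KIF15, which can keep the spindle bipolar alongside KIF11, differed by -1.10 ± 0.20 (limma adjusted p = 0.0962). KIFC1, a minus-end motor that focuses spindle poles, read 5.74 on the AZA array, 6.52 on the withdrawal array, 6.80 and 6.91 on the TGFb arrays and 6.35 and 6.94 on the untreated arrays. Its untreated arrays were 0.60 apart, and its difference from TGFb was -1.12 ± 0.29 (limma adjusted p = 0.2). KIF22, a chromokinesin that pushes chromosome arms away from the poles, read 5.30 on the AZA array, 6.29 on the withdrawal array, 6.19 and 6.27 on the TGFb arrays and 5.65 and 5.88 on the untreated arrays, a difference of -0.93 from TGFb. KIF18A, which damps chromosome movements at the metaphase plate, differed by -0.57 ± 0.24 (95% interval -1.20 to 0.05).

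Among the motors of the central spindle and midbody, KIF20A brings the chromosomal passenger complex to the central spindle. KIF20A read 7.58 on the AZA array, 8.62 on the withdrawal array, 8.57 and 9.07 on the TGFb arrays and 8.29 and 8.28 on the untreated arrays, and differed from TGFb by -1.24 ± 0.26 (limma adjusted p = 0.13). KIF4A, which binds PRC1 and limits the length of the central spindle, read 8.05 on the AZA array, 8.81 on the withdrawal array, 9.07 and 9.50 on the TGFb arrays and 8.61 and 8.79 on the untreated arrays. For KIF4A the difference from TGFb was -1.23 ± 0.25 (limma adjusted p = 0.124). In both genes the 2 TGFb arrays were 0.43 to 0.51 apart, and the AZA array still lay below every other array. KIF14, which recruits citron kinase to the midbody, differed by -0.87 ± 0.19 (limma adjusted p = 0.152).

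The smallest differences were in KIF20B and KIF18B. KIF20B, needed for abscission, read 9.32 on the AZA array, 10.11 on the withdrawal array, 9.99 and 9.75 on the TGFb arrays and 9.97 and 9.86 on the untreated arrays, a difference of -0.55 ± 0.20 from TGFb (95% interval -1.06 to -0.04). KIF18B, which acts on astral microtubules, read 5.33 on the AZA array, 5.49 on the withdrawal array, 5.44 and 5.37 on the TGFb arrays and 5.33 and 5.36 on the untreated arrays. It had the dimmest mean signal of the list and spanned 0.16 over the 6 arrays, so its place below the others is within the gap between replicates.

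**Figure D2:**
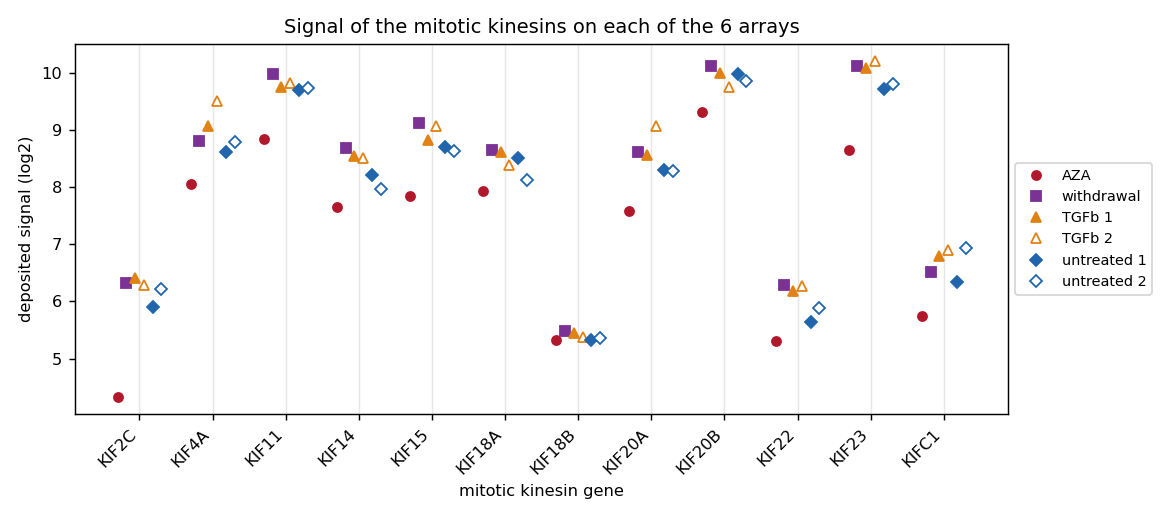
Deposited log2 signal (vertical axis) of the 12 mitotic kinesins (horizontal axis) on the AZA array, the withdrawal array, the 2 TGFb arrays and the 2 untreated arrays, 1 symbol per array. The AZA circle lies below all other symbols in 11 genes, by 0.20 (KIF18A) to 1.58 (KIF2C), and level with the lowest of them in KIF18B.

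The AZA array was the lowest of the 6 for 12 of 12 mitotic kinesins, against 23.0% of all probe sets. After quantile normalization it was 11 of 12, KIF18B being the exception, and after median centring 12 of 12. The AZA array was lowest for 2 of 17 transport kinesins (KIF1C and KIF21B) and for 1 of 11 others. Against untreated cells the mitotic list had a median log2 difference of -0.68, against -0.03 for all probe sets. Here 8 of 12 had an unadjusted p under 0.05 with lower signal, against 9.34% of probe sets, and 2 of 12 were called, against 1.41%. The comparisons with TGFb and with untreated cells share the AZA array and are not independent of each other, and AZA, withdrawal and untreated cells are all set against the same 2 TGFb arrays.

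Genes that work with the mitotic kinesins without being kinesins by symbol lay in the same direction. Of 18 listed, 17 had a probe set of their own, and all 17 had a negative difference between AZA and TGFb, with a median of -0.95, where 16777 of 32293 probe sets were negative. PLK1, a mitotic kinase that binds KIF20A and PRC1 at the central spindle, read 6.64 on the AZA array, 8.54 on the withdrawal array, 8.19 and 8.02 on the TGFb arrays and 7.69 and 7.73 on the untreated arrays. It fell by 1.47 ± 0.19 on the log2 scale against TGFb (limma adjusted p = 0.0468) and was the 1 gene of the 17 called, against 0.189% of all probe sets called lower. The PLK1 call ended after quantile normalization (adjusted p = 0.0589), without either untreated array (0.105), without TGFb replicate 1 (0.243) and without TGFb replicate 2 (0.205).

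Spindle assembly factor TPX2, which binds KIF11 and KIF15, differed by -1.32 ± 0.19 (limma adjusted p = 0.0643). RACGAP1, the partner of KIF23 in centralspindlin, differed by -1.24 ± 0.22 (limma adjusted p = 0.0919) and PRC1, which bundles central spindle microtubules, by -1.03 ± 0.19 (limma adjusted p = 0.102). CENPE, a kinetochore kinesin that carries another symbol, differed by -1.13 ± 0.19 (limma adjusted p = 0.088). On arrays of bulk RNA, fewer cells in mitosis and less of these transcripts per cell cannot be told apart, and how far the share of dividing cells moved with the AZA array was not tested.

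Of the 11 other kinesins, KIF24 lay closest to the mitotic values. KIF24, a centriolar motor that restrains growth of the primary cilium, read 6.20 on the AZA array, 7.07 on the withdrawal array, 7.12 and 7.23 on the TGFb arrays and 7.27 and 6.97 on the untreated arrays. The AZA value was 0.77 below every other array, and the differences were -0.97 ± 0.21 from TGFb (limma adjusted p = 0.141) and -0.92 ± 0.21 from untreated cells (limma adjusted p = 0.103). KIF2A, a relative of KIF2C that also takes apart microtubules and is used in neurons as well as at spindle poles, read 10.03 on the AZA array, 10.11 on the withdrawal array, 10.19 and 10.01 on the TGFb arrays and 10.01 and 9.81 on the untreated arrays. The AZA difference of KIF2A from TGFb was -0.07 ± 0.20 (95% interval -0.59 to 0.44). KIF2B, another depolymerising relative and the dimmest of the list, read 2.43 on the AZA array, 2.30 on the withdrawal array, 2.53 and 2.33 on the TGFb arrays and 2.38 and 2.47 on the untreated arrays.

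Transport kinesins as a list showed little shift on the AZA array, and 1 of the 17 rose: KIF5C, a heavy chain of kinesin-1. KIF5C read 7.02 on the AZA array, 4.26 on the withdrawal array, 5.52 and 4.76 on the TGFb arrays and 3.60 and 3.39 on the untreated arrays. The AZA array was the highest, both TGFb arrays lay above the withdrawal array, and the untreated arrays were lowest. KIF5C was 11.5-fold higher on the AZA array than in untreated cells, a log2 difference of 3.52 ± 0.35 (limma adjusted p = 0.0136). Calls of higher signal took in 1 of 17 transport kinesins there, against 2.24% of all probe sets.

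The KIF5C difference between AZA and TGFb was 1.88 ± 0.35 (limma adjusted p = 0.101) and that between TGFb and untreated cells 1.64 ± 0.28 (limma adjusted p = 0.0764), so neither step passed by itself. With the replicate number as a block the second did (limma adjusted p = 0.0348), in a fit that called 2.2% of all probe sets. Without untreated replicate 1 or 2 the AZA difference from untreated cells was 3.63 and 3.42 and missed the threshold. Without either TGFb array the call held. Calls over all probe sets fell in each fit without a replicated array, but not in the fit with the block. Both untreated signals lay below the 4.99 of the middle probe set, and no detection limit is given. Of the 8 neuronal markers measured, values ran from 2.37 to 5.99 on the AZA array, 2.60 to 6.28 on the withdrawal array, 2.47 to 5.07 on the TGFb arrays and 2.60 to 5.30 on the untreated arrays. The upper end on the AZA and withdrawal arrays was SNAP25, a synaptic fusion protein, which read 5.99 on the AZA array, 6.28 on the withdrawal array, 3.93 and 4.41 on the TGFb arrays and 4.61 and 4.71 on the untreated arrays. SNAP25 rose on the withdrawal array against TGFb (limma adjusted p = 0.0484) and differed between AZA and TGFb by 1.82 (limma adjusted p = 0.0617). STMN2, a neuronal tubulin-binding protein, read 4.12 on the AZA array, 3.67 on the withdrawal array, 3.19 and 3.21 on the TGFb arrays and 3.37 and 3.11 on the untreated arrays, a difference of 0.92 between AZA and TGFb (limma adjusted p = 0.141). The AZA array was highest for STMN2 and NEFM, the withdrawal array for SNAP25 and SYP, and neither of them for SYT1, RBFOX3, ELAVL4 and NEFL. ELAVL4 read lowest on the AZA array, at 2.37. SYT1, RBFOX3, ELAVL4, NEFL and NEFM read at most 4.69 on every array. The part of neuronal gene expression in the values of KIF5C, KIF5A and KIF3C was not tested.

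The other kinesin-1 heavy chains had smaller differences. KIF5B, the heavy chain found in most cell types, had the brightest signal of the list and read 11.38 on the AZA array, 11.27 on the withdrawal array, 11.42 and 11.34 on the TGFb arrays and 11.36 and 11.01 on the untreated arrays. Its difference between AZA and untreated cells was 0.19 ± 0.22 (95% interval -0.37 to 0.76). KIF5A, the remaining heavy chain and best known from neurons, read 7.12 on the AZA array, 5.66 on the withdrawal array, 6.01 and 6.87 on the TGFb arrays and 6.16 and 6.43 on the untreated arrays. The KIF5A difference from untreated cells was 0.83 ± 0.39 (limma adjusted p = 0.364), and its TGFb arrays were 0.86 apart. Heavy chains are similar in sequence, and which probes could read more than 1 of them was not examined. For KIF5C the 95% interval of AZA against untreated was 2.63 to 4.41, and the difference between the genes was not tested.

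KIF21A, a kinesin-4 motor that also restrains microtubule growth, read 8.17 on the AZA array, 6.24 on the withdrawal array, 7.34 and 7.36 on the TGFb arrays and 6.71 and 5.90 on the untreated arrays. It kept the same order of groups as KIF5C at the upper end, with AZA highest and TGFb next. The difference between AZA and untreated cells was 1.87 ± 0.36 (limma adjusted p = 0.0663). KIF1B, a kinesin-3 motor of vesicles and mitochondria, read 9.29 on the AZA array, 8.03 on the withdrawal array, 8.81 and 8.77 on the TGFb arrays and 8.67 and 8.54 on the untreated arrays. AZA was highest and withdrawal lowest, each outside the range of the replicated arrays, with differences from TGFb of 0.50 ± 0.18 (limma adjusted p = 0.328) and -0.75 ± 0.18 (limma adjusted p = 0.18).

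KIF26B, an atypical kinesin known from mouse kidney development, read 5.97 on the AZA array, 5.15 on the withdrawal array, 5.26 and 5.70 on the TGFb arrays and 4.85 and 5.05 on the untreated arrays. The AZA difference from untreated cells was 1.02 ± 0.25 (limma adjusted p = 0.12). Of its other 2 probe sets, 1 gave 0.74 and 1 gave -0.16 for the same comparison, so the probe sets of KIF26B disagree in sign. The probe set shown was the brightest only through its AZA value. Without the AZA array the probe set giving -0.16 had the higher mean signal, so the choice favoured a rise on that array. KIF6, linked to motile cilia in mouse, had 2 probe sets, and the brighter read 3.39 on the AZA array, 3.05 on the withdrawal array, 3.28 and 3.03 on the TGFb arrays and 3.22 and 3.19 on the untreated arrays. Its 0.23 difference between AZA and TGFb was smaller than the 0.25 gap between the TGFb arrays.

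**Figure D3:**
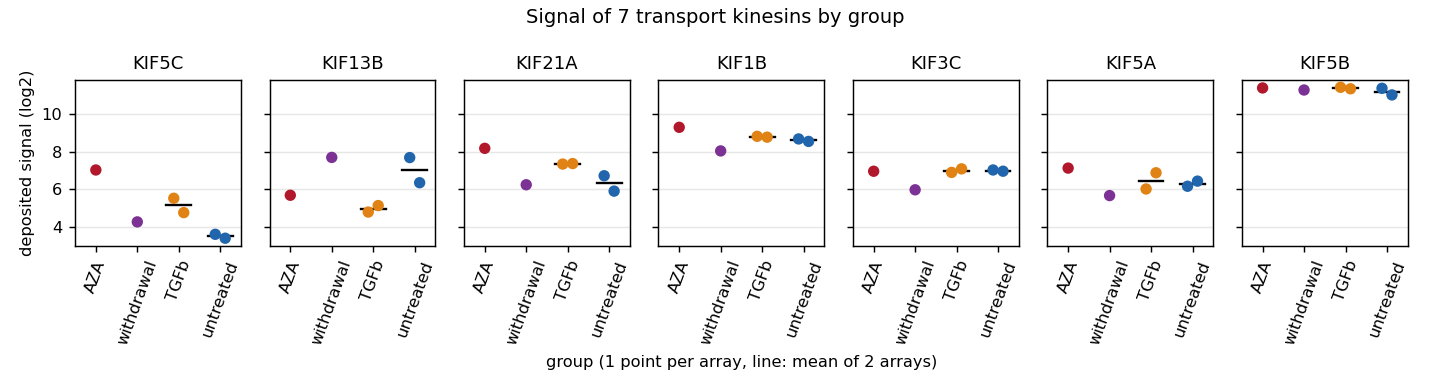
Deposited log2 signal (vertical axis) of 7 transport kinesins in the AZA, withdrawal, TGFb and untreated groups, 1 point per array, with a line at the mean of the 2 TGFb and of the 2 untreated arrays. KIF5C is highest on the AZA array at 7.02 and lowest on the untreated arrays at 3.60 and 3.39, KIF13B is lowest on the TGFb arrays at 4.79 and 5.13, and KIF5B stays between 11.01 and 11.42.

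The comparison of TGFb with untreated cells asks what lasting growth factor treatment did, and it called no kinesin, against 1.64% of all probe sets. At an unadjusted p under 0.05, limma gave 7 kinesins higher and 1 lower, against 7.6% and 7.25% of probe sets. The mitotic list had a median log2 difference of 0.28, against -0.01 for all probe sets, with 11 of 12 positive and 9 of 12 above both untreated arrays, a separation that 23.0% of probe sets showed. The 3 largest mitotic differences were those of KIF4A (0.59 ± 0.20, limma adjusted p = 0.284), KIF20A (0.53 ± 0.21, limma adjusted p = 0.347) and KIF22 (0.47 ± 0.16, limma adjusted p = 0.282). The mitotic partner genes had a median of 0.39, with none called of 17 and 7 at an unadjusted p under 0.05.

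Transport kinesins had a median of 0.01 between TGFb and untreated cells, but the list held the largest single differences. KIF13B, a kinesin-3 motor that binds the polarity scaffold DLG1, read 5.68 on the AZA array, 7.69 on the withdrawal array, 4.79 and 5.13 on the TGFb arrays and 7.68 and 6.34 on the untreated arrays. The TGFb arrays were below both untreated arrays, the withdrawal array matched the higher untreated one, and the untreated arrays were 1.34 apart. The difference between TGFb and untreated cells was -2.05 ± 0.45 (limma adjusted p = 0.129), and it was -1.39 without untreated replicate 1 and -2.72 without untreated replicate 2. KIF21A differed by 1.04 ± 0.29 (limma adjusted p = 0.203). KIF13A, the close relative of KIF13B, differed by 0.07 ± 0.15 (95% interval -0.32 to 0.45). KIF21B, the close relative of KIF21A, differed by -0.07 ± 0.16 (95% interval -0.47 to 0.33).

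The chains of kinesin-2, the motor that carries cargo along the primary cilium, had small differences between TGFb and untreated cells. KIF3A differed by -0.19 ± 0.22 and KIF3B by 0.01 ± 0.18, while KIFAP3, the subunit that joins them to cargo, read 10.06 on the AZA array, 9.12 on the withdrawal array, 10.12 and 9.62 on the TGFb arrays and 8.90 and 8.80 on the untreated arrays. KIFAP3 was higher on both TGFb arrays than on either untreated array, with a difference of 1.02 ± 0.21 (limma adjusted p = 0.116). Of 14 intraflagellar transport genes, the cargo trains of kinesin-2, 1 rose, against 0.691% of all probe sets: IFT22, by 1.19 ± 0.15 (limma adjusted p = 0.0412). The median of that list was 0.43, with 12 of 14 positive, where 15874 of 32293 probe sets were positive. For withdrawal against TGFb its median was -0.38, with 11 of 14 negative, where 15309 of 32293 probe sets were negative. IFT22 read 6.73 on the AZA array, 6.46 on the withdrawal array, 7.56 and 7.72 on the TGFb arrays and 6.41 and 6.50 on the untreated arrays. Its call ended without untreated replicate 1 (adjusted p = 0.153) or 2 (0.127) and without TGFb replicate 1 (0.214) or 2 (0.21).

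The remaining kinesins of cilia and signalling differed little under TGFb. KIF7, a cilium tip kinesin of the Hedgehog pathway, read 3.77 on the AZA array, 4.00 on the withdrawal array, 4.08 and 3.63 on the TGFb arrays and 4.18 and 4.00 on the untreated arrays, and its -0.24 between TGFb and untreated cells was smaller than the gap of 0.44 between the TGFb arrays. KIF17, a second kinesin-2 motor with the dimmest signal among transport kinesins, read 3.41 on the AZA array, 3.30 on the withdrawal array, 3.73 and 3.36 on the TGFb arrays and 3.18 and 3.63 on the untreated arrays. The minus-end motor KIFC3, which serves apical delivery in epithelial cells, differed by -0.19 ± 0.15 (95% interval -0.57 to 0.18). Over the 11 other kinesins, differences ran from -0.24 to 0.53, and over the 17 transport kinesins from -2.05 to 1.64.

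**Figure D4:**
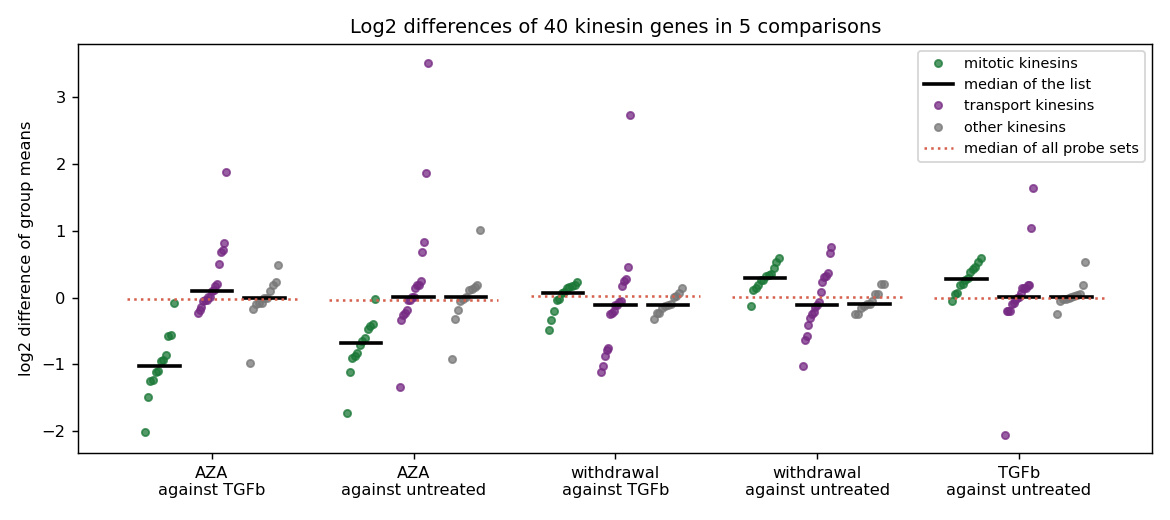
Log2 difference of group means (vertical axis) for each of the 40 kinesins in 5 comparisons (horizontal axis), with mitotic, transport and other kinesins in separate columns, a black bar at each list's median and a dotted line at the median of all probe sets. The mitotic median is -1.02 for AZA against TGFb, -0.68 for AZA against untreated and 0.28 for TGFb against untreated, while the transport medians stay between -0.11 and 0.10.

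Withdrawal was compared with the TGFb arrays to ask which kinesins moved once TGFb was removed, and with untreated cells to ask which still differed. Neither comparison called a kinesin, against 0.839% of all probe sets called for withdrawal against TGFb and 0.0% for withdrawal against untreated. At an unadjusted p under 0.05, limma gave 2 kinesins higher and 3 lower against TGFb, where all probe sets gave 6.49% and 7.05%. Against untreated cells it gave 2 higher and 2 lower, where all probe sets gave 4.31% and 5.46%.

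The mitotic kinesins of withdrawn cells lay near those of TGFb-treated cells, with a median log2 difference of 0.07 from TGFb and 0.30 from untreated cells. The withdrawal array was the highest of the 6 for 7 of 12 mitotic kinesins, against 20.7% of all probe sets, and lay above both untreated arrays in 11 of 12, against 37.3%. KIF14 differed from untreated cells by 0.59 ± 0.19 (limma adjusted p = 0.457) and KIF22 by 0.53 ± 0.20 (limma adjusted p = 0.488), the 2 mitotic members with an unadjusted p under 0.05. Mitotic partner genes had a median of 0.33 from untreated cells.

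KIF13B gave the largest difference between withdrawal and TGFb, 2.73 ± 0.56 (limma adjusted p = 0.137), and differed from untreated cells by 0.68 ± 0.56 (95% interval -0.75 to 2.10). For KIF21A, withdrawal lay 1.11 ± 0.36 below TGFb (limma adjusted p = 0.282) and within the range of the untreated arrays. KIF5C lay between the groups, at -0.87 ± 0.35 from TGFb (limma adjusted p = 0.377) and 0.76 ± 0.35 from untreated cells (limma adjusted p = 0.564).

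KIF3C, a kinesin-2 chain known from neurons, set the withdrawal array apart from all others. It read 6.95 on the AZA array, 5.97 on the withdrawal array, 6.89 and 7.08 on the TGFb arrays and 7.02 and 6.96 on the untreated arrays. The difference from TGFb was -1.02 ± 0.19 (limma adjusted p = 0.117) and that from untreated cells -1.02 ± 0.19 (limma adjusted p = 0.333), while TGFb and untreated cells differed by 0.00 ± 0.15. KIF3A, with which KIF3C pairs, differed between withdrawal and untreated cells by -0.24 ± 0.27 (95% interval -0.92 to 0.45). Among the other kinesins KIF9, of motile cilia, read 4.81 on the AZA array, 4.40 on the withdrawal array, 4.62 and 4.63 on the TGFb arrays and 4.48 and 4.80 on the untreated arrays. KIF27, a relative of KIF7, read 7.54 on the AZA array, 7.48 on the withdrawal array, 7.55 and 7.85 on the TGFb arrays and 7.79 and 7.64 on the untreated arrays, a difference of -0.23 between withdrawal and TGFb in both genes. The untreated arrays of KIF9 were 0.33 apart and the TGFb arrays of KIF27 0.30 apart.

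KIF1C, a kinesin-3 motor of dense-core vesicles and integrin traffic, spanned 0.69 over the 6 arrays. It was lowest on the AZA array by 0.21 and differed between withdrawal and TGFb by 0.46 ± 0.17 (limma adjusted p = 0.355), 1 of the 2 kinesins higher there at an unadjusted p under 0.05. The members not yet described spanned less. KIF16B, which moves early endosomes, spanned 0.45 between its lowest and highest array and the minus-end motor KIFC2 spanned 0.46. KIF1A, the synaptic vesicle precursor motor of neurons, spanned 0.35, and KIF12, KIF25 and KIF26A spanned 0.29, 0.24 and 0.14.

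Partners of transport motors had small median differences. Of 18 listed adaptors, light chains and regulators, 14 had a probe set of their own. None of them was called in any of the 5 comparisons, where 0.0% to 3.65% of all probe sets were. Medians lay between -0.03 and 0.27. At an unadjusted p under 0.05, limma gave 0 to 2 of them higher and 0 to 4 lower. The 4 of 14 were those lower on the withdrawal array than under TGFb, where 7.05% of all probe sets were. The kinesin-1 light chain KLC1 read 8.22 on the AZA array, 7.54 on the withdrawal array, 8.20 and 8.23 on the TGFb arrays and 7.88 and 8.11 on the untreated arrays. Of 15 dynein and dynactin genes, the minus-end motor that runs opposite to most kinesins, none was called either (medians -0.26 to 0.22). At an unadjusted p under 0.05, 0 to 5 of them were higher and 0 to 2 lower. The 5 of 15 were those higher under TGFb than in untreated cells, where 7.6% of all probe sets were. Its heavy chain DYNC1H1 differed by -0.02 ± 0.28 between AZA and TGFb and by -0.22 ± 0.23 between TGFb and untreated cells.

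**Figure D5:**
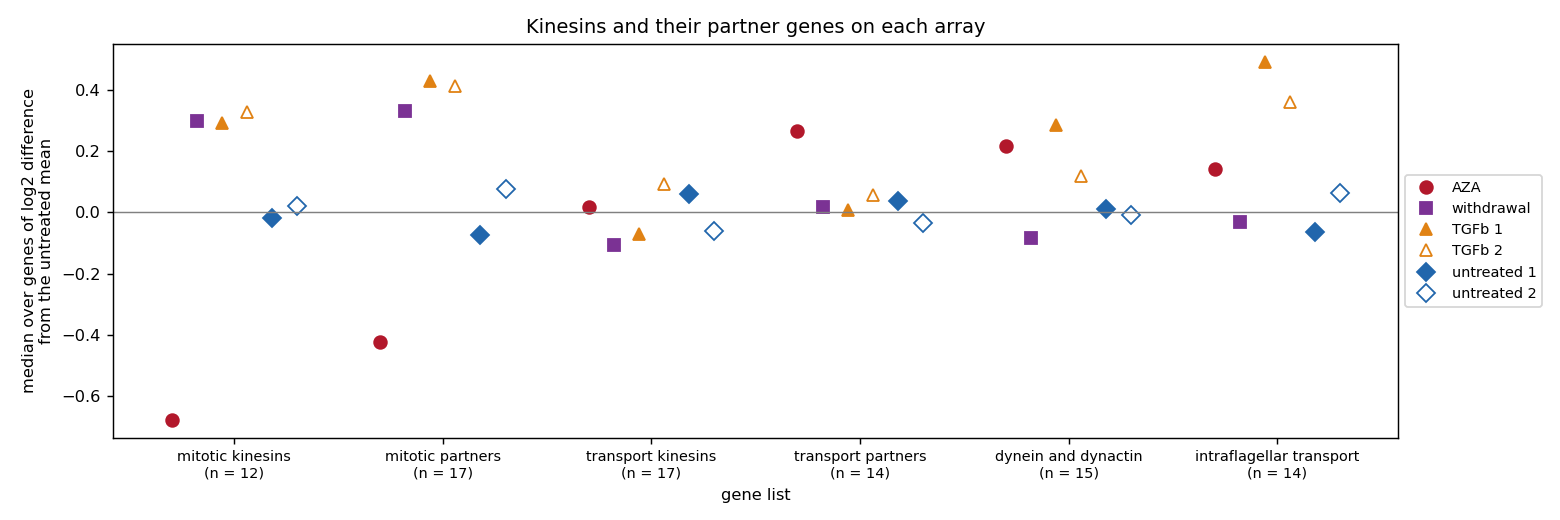
Median over the genes of each list of the log2 difference from the untreated mean (vertical axis) on each of the 6 arrays, for mitotic kinesins (12 genes), their partners (17), transport kinesins (17), their partners (14), dynein and dynactin (15) and intraflagellar transport (14). On the AZA array mitotic kinesins lie at -0.68 and their partners at -0.42, while on the withdrawal and TGFb arrays both lists lie between 0.29 and 0.43.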

How the data were processed

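Total RNA of 6 MDCK samples was measured on single-colour Affymetrix arrays. The deposited table holds log2 values, 1 per probe set and array, made by the authors with Affymetrix Expression Console 1.2 per the submitters' processing notes. Which summary method, background correction, log base and genome build were used is not stated there. The range of 0.937 to 13.1 was read as log2, and no centring per gene is present. Of 32293 probe sets 16545 carry 1 symbol in the platform annotation, 370 several and 15378 none. The 40 kinesins had 45 probe sets, 4 genes having more than 1, and none repeated the values of another. The symbol KIF19 occurs only on a probe set shared with another symbol and was not used. No gene sequences were used here.

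A model with 1 mean per group was estimated on the 6 arrays by limma 3.58.1 under R 4.3.3 (lmFit and eBayes, no trend). It had 2 residual and 3.10 prior degrees of freedom. This step was also run on simulated data. Every simulated array had the spread of the replicated pairs, so that run could not test whether single arrays vary alike. Few arrays limit the precision, and a group of 1 array borrows its spread from the TGFb and untreated pairs. Alternatives were quantile normalization, median centring, an intensity trend, robust moderation, leaving out dim probe sets, testing named genes only, the replicate number as a block and leaving out each replicated array. Members, role lists and partner lists were chosen with earlier results of these data known. Values on each array are given for called members, for the 3 largest differences of each role list in 3 comparisons, and for the brightest and dimmest member of each list. CENPE, PLK1, SNAP25, PECAM1 and the members described beyond that rule were chosen after their values were seen or belong to the partner and marker lists.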

Additional observations from a re-analysis of the deposited data

How the results depend on the processing

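Testing only the 15947 named genes raised the kinesin calls to 9 for AZA against TGFb (KIF2C, KIF4A, KIF11, KIF15, KIF20A, KIF22, KIF23 and KIF24 lower, KIF5C higher), 8 for AZA against untreated (KIF2C, KIF11, KIF15, KIF23 and KIF24 lower, KIF5C, KIF21A and KIF26B higher), 2 for TGFb against untreated (KIF5C, KIF13B) and 2 for withdrawal against TGFb (KIF3C, KIF13B). This setting called 4.28%, 10.9%, 7.7% and 5.69% of all genes tested in these comparisons. The KIF26B call rests on a probe set that was the brightest only through its AZA value. Quantile normalization left 1 call for AZA against TGFb. For AZA against untreated, an intensity trend added KIF11 (limma adjusted p = 0.0411) and called 3.97% of all probe sets. In the same comparison, leaving out dimmer probe sets added KIF11 (limma adjusted p = 0.0446) and KIF21A (0.0359) and took KIF5C out. That setting called 7.56% of the probe sets it tested. Without 1 replicated array the calls numbered 0 for AZA against TGFb and 0 to 1 for AZA against untreated, where the fit has 1 residual degree of freedom. The call without untreated replicate 1 was KIF21A, and without either TGFb array it was KIF5C. Calls over all probe sets also fell in each fit without a replicated array.

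The numbers in the titles do not state a shared culture or day, and same-numbered untreated and TGFb arrays deviated together with r = 0.10 over all probe sets. With the replicate block, 1 of 40 kinesins was called for TGFb against untreated, KIF5C, where 2.2% of all probe sets were called.

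The mitotic median for AZA against TGFb was -0.97 after quantile normalization, -1.06 after median centring and -1.08 to -0.94 without 1 array. For AZA against untreated it was -0.63 after quantile normalization and -0.72 to -0.63 without 1 array. For TGFb against untreated it was 0.31 after median centring and 0.29 to 0.38 without 1 array, and for withdrawal against TGFb 0.031 after median centring. Transport medians without 1 array ran from 0.017 to 0.21 for AZA against untreated and from -0.11 to 0.010 for withdrawal against untreated. Of 121 recomputed list and count values, 93 were counts equal or close to the main count, or medians within the replicate spread of the main median. Some of these could not move, such as medians recomputed without an array outside their comparison. No called kinesin changed sign under any setting run. Detection limits are not given, which bears most on KIF5C, KIF2B, KIF6, KIF7 and KIF17, and on the AZA value of KIF2C.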
